A study of Rattus norvegicus with 96 samples.

Results

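The ventral tegmental area (VTA) was compared with the shell of the nucleus accumbens (NAc shell) in rats that had received saline (SAL). The members were chosen from the sample labels: every SAL rat with an RNA sequencing library from each of these regions was taken, and the libraries of 1 rat formed a pair. This gave 15 rats, 7 males and 8 females, and 30 of the 96 libraries of the series. Male 3 entered no pair, since no VTA library of this rat was used here, and of the libraries R1 and R2 from the VTA of male 5, R2 was used. The series addressed sensitization to nicotine (NIC) and took VTA, NAc core and shell from F1 rats bred from the inbred strains F344/NHsd and BN/RijHsd, with both directions of the cross spread over the groups. SAL rats were injected with 1.0 ml/kg saline and NIC rats with 0.4 mg/kg nicotine, each once daily for 4 days. The labels place the harvest on day 17, and the study's methods place it 2 weeks after the injections. Regions were dissected by hand and each library came from bulk tissue of 1 rat, so that fewer cells of a type in a region and less RNA per cell cannot be told apart.

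The VTA lies in the midbrain and holds dopamine neurons, which send axons to the NAc, beside GABA and glutamate neurons and many myelinated fibres. The NAc shell belongs to the ventral striatum, where most neurons are GABA projection neurons that receive this dopamine. These are classed into direct and indirect pathway neurons by the dopamine receptor and the peptides they make, and sparse cholinergic and other interneurons lie among them.

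Levels are given as CPM, the estimated count of a gene scaled to a common library total with TMM factors. CPM was not divided by gene length, so levels are compared between regions and not between genes. Log2 differences are VTA minus NAc shell, fitted by edgeR with the rat as a block and given with their standard error (SE). A gene is called where its Benjamini-Hochberg adjusted p was under 0.05 over all genes tested, and called beyond 2-fold where a test against a log2 difference of 1 passed the same threshold.

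Total estimated counts lay between 16066218 and 27736905 in VTA and between 16222544 and 23528674 in NAc shell, with medians of 19890831 and 19873969. The mean total was higher in VTA by 883471 counts, and 8 of the 15 rats had the higher total in VTA (two-sided exact permutation test of the paired differences, p = 0.266). The NAc shell library of male 1 stood apart. It held 383 CPM summed over 9 markers of striatal projection neurons, against 2590 to 4310 CPM in the NAc shell of the other rats and 370 to 489 CPM in VTA, and 2.48 CPM of 4 cholinergic markers, against 38.0 to 131 CPM. Its level of Nrgn, a postsynaptic gene abundant in cortex, was 2974 CPM, where the other NAc shell libraries held 464 to 1140 CPM. In the VTA of female 12, female 13, female 15 and male 4, the dendritic gene Ddn stood at 399, 196, 126 and 96.0 CPM, against 11.5 to 64.5 CPM in the other VTA libraries. Those VTA libraries were also the highest in Nrgn, at 428, 479, 489 and 366 CPM, and in the forebrain gene Lhx2, at 28.6, 14.1, 10.1 and 9.10 CPM. Where leaving out male 1 separated the ranges of a gene whose VTA minus NAc shell difference is given below, or changed its call, this is said with it. The overall counts and the main lists are also given without all 5 rats. The 5 rats were picked by the genes of this paragraph, so changes in those genes without them follow from that choice.

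**Figure D1:**
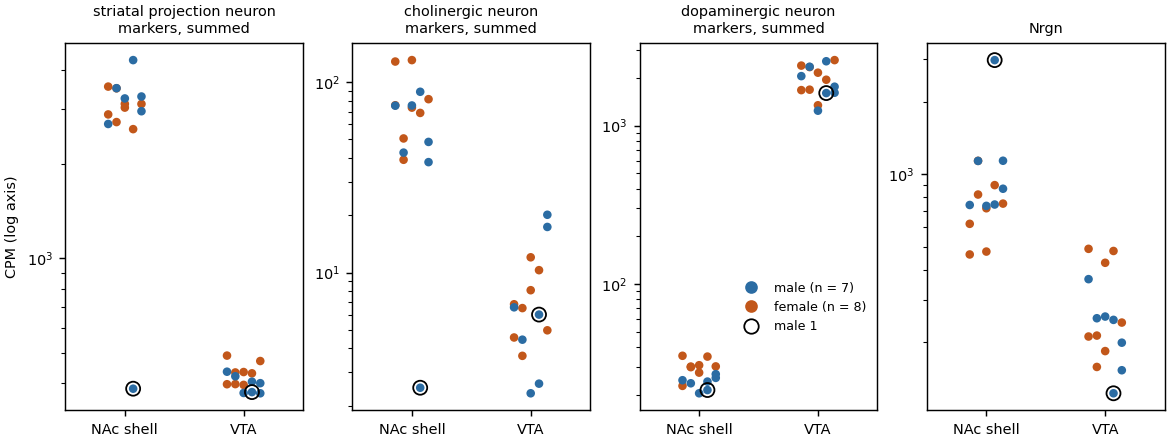
Levels in CPM on log axes for 15 NAc shell and 15 VTA libraries, 1 point per library, summed over 9 markers of striatal projection neurons, 4 of cholinergic neurons and 6 of dopaminergic neurons, and for Nrgn alone. The circled NAc shell library of male 1 lies at the VTA level for the first and the second sum, at 383 and 2.48 CPM, and highest for Nrgn, at 2974 CPM, while its dopaminergic sum of 21.4 CPM lies among the other NAc shell libraries.

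The regions differed in most genes measured, and mostly by small amounts. Of 16349 genes tested, 12004 were called (73.4%), 5931 of them higher in VTA (36.3%) and 6073 lower (37.1%). The median absolute log2 difference over all genes was 0.41, and 9187 of the genes called (76.5%) differed by less than 1 on the log2 scale. Beyond 2-fold, 1620 genes were called (9.91%), 822 higher in VTA (5.03%) and 798 lower (4.88%). The ranges of the 15 VTA and the 15 NAc shell libraries did not overlap for 2932 genes (17.9%), with VTA above in 1325 (8.1%) and below in 1607 (9.83%). The direction was the same in all 15 rats for 5422 genes. Without male 1, 11889 of 16313 genes were called (72.9%), 36.9% of those tested being higher and 36% lower, and 1586 were called beyond 2-fold (9.72%), 4.92% higher and 4.8% lower. The ranges of 14 against 14 libraries did not overlap for 20.5% of genes, with VTA above for 9.04% and below for 11.5%. Without all 5 rats named above, 11277 genes were called and 1679 beyond 2-fold, 1504 of them shared with the fit of 15 rats. The counts of the gene lists below are read against the shares of all genes called, 36.3% higher and 37.1% lower in VTA. Only members with a symbol in the paper's tables entered the list counts, while these shares include genes without a symbol.

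The genes that make, pack and take up dopamine were higher in VTA than in NAc shell, most of them with no overlap between the regions. Of 7 members tested on the list for dopamine synthesis, packaging and breakdown, 7 were called higher and 6 of these beyond 2-fold, against 36.3% and 5.03% of all genes, and the median log2 difference was 4.71, where that of all genes was -0.0025. The ranges of 6 members did not overlap. The NAc shell library of male 1 left these counts as they were, with a median of 4.69 without it. The promoters of the members with a searched motif are shown first, because these genes moved together. Each line gives the 250 bases before the RefSeq start in the rat assembly GRCr8, while the authors' counts used Rnor 6.
Ddc, chr14:90682784-90683033, minus strand: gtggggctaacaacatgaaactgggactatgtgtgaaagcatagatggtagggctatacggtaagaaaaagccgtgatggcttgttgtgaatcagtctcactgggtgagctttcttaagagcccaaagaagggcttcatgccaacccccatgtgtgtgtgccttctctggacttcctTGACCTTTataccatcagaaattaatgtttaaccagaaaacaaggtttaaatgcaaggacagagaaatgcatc
Th, chr1:207508219-207508468, minus strand: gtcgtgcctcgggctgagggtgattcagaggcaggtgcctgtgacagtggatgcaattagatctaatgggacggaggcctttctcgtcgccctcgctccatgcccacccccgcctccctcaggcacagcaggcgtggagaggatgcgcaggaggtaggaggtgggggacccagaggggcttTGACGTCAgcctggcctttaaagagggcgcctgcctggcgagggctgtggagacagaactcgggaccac
Slc18a2, chr1:268399771-268400020, plus strand: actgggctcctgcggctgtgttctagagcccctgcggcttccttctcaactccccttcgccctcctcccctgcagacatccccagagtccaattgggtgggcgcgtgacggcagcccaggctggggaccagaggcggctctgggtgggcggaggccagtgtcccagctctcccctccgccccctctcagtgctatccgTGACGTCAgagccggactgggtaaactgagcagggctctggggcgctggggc
Capitals in Ddc mark the letters TGACCTTT, which is AAAGGTCA, the site that NR4A receptors bind as monomers, on the opposite strand, from base 73 to base 66 before the start. This window is the most upstream of 3 that RefSeq gives for Ddc. Capitals in Th and Slc18a2 mark the cAMP response element TGACGTCA, from base 69 to base 62 and from base 52 to base 45. Searched on both strands of 33469 RefSeq windows of 300 bases, AAAGGTCA was present in 477 (1.43%) and TGACGTCA in 612 (1.83%). Windows were found for 12 of the 13 genes on the list, tested or not, 1 with the first motif and 2 with the second. They were found for 4 of the 8 genes on the opioid list, 0 of them with either motif. A listed gene was counted if any of its windows held the motif, while the shares above count single windows, so these are unlike units. A match describes the letters and shows no binding.

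Slc6a3 (ENSRNOG00000017302, chromosome 1), the dopamine transporter, ranged from 550 to 1117 CPM in VTA with a median of 809 CPM, and from 0.0513 to 1.17 CPM in NAc shell with a median of 0.343 CPM. The log2 difference of 10.82 (SE 0.228, adjusted p = 9.4e-17) was the greatest fitted among genes with a symbol, at least 5 CPM and 1 direction in all rats. Foxa2, with 0 counts in NAc shell, has only the lower bound given below and cannot be ranked against Slc6a3. Th (ENSRNOG00000020410, chromosome 1) encodes tyrosine hydroxylase, the rate-limiting enzyme of dopamine synthesis. It ranged from 414 to 891 CPM (median 650) in VTA and from 1.18 to 3.54 CPM (median 2.17) in NAc shell, a log2 difference of 8.30 (SE 0.158). The 15 VTA libraries of each gene lay far above the 15 NAc shell libraries. Slc18a2 (chromosome 1), which loads monoamines into vesicles, reached 101 to 257 CPM in VTA and 0 to 4.17 CPM in NAc shell (log2 difference 6.81, SE 0.336). Ddc (chromosome 14), which makes dopamine from L-DOPA, was at 152 to 298 CPM (median 227) in VTA and at 8.23 to 15.3 CPM (median 11.0) in NAc shell, with a log2 difference of 4.36 (SE 0.0790). Both sets of ranges were apart, and the NAc shell level of Ddc was well above 0 in every rat.

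The cofactor tetrahydrobiopterin, which Th needs, is made in several steps. Gch1, the enzyme of the first step, ranged from 8.91 to 25.1 CPM in VTA and from 0.202 to 1.06 CPM in NAc shell (log2 difference 4.71, SE 0.195). Qdpr, which recycles the cofactor, ranged from 545 to 938 CPM and from 179 to 315 CPM (1.44, SE 0.0679). The ranges of Gch1 and Qdpr did not overlap. Pts, which acts after Gch1, had the smallest difference of the list, 0.40 (SE 0.0602, adjusted p = 8.35e-06), with 17.9 to 24.6 CPM in VTA and 12.0 to 19.8 CPM in NAc shell, ranges that overlapped although VTA was higher in 15 of 15 rats.

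**Figure D2:**
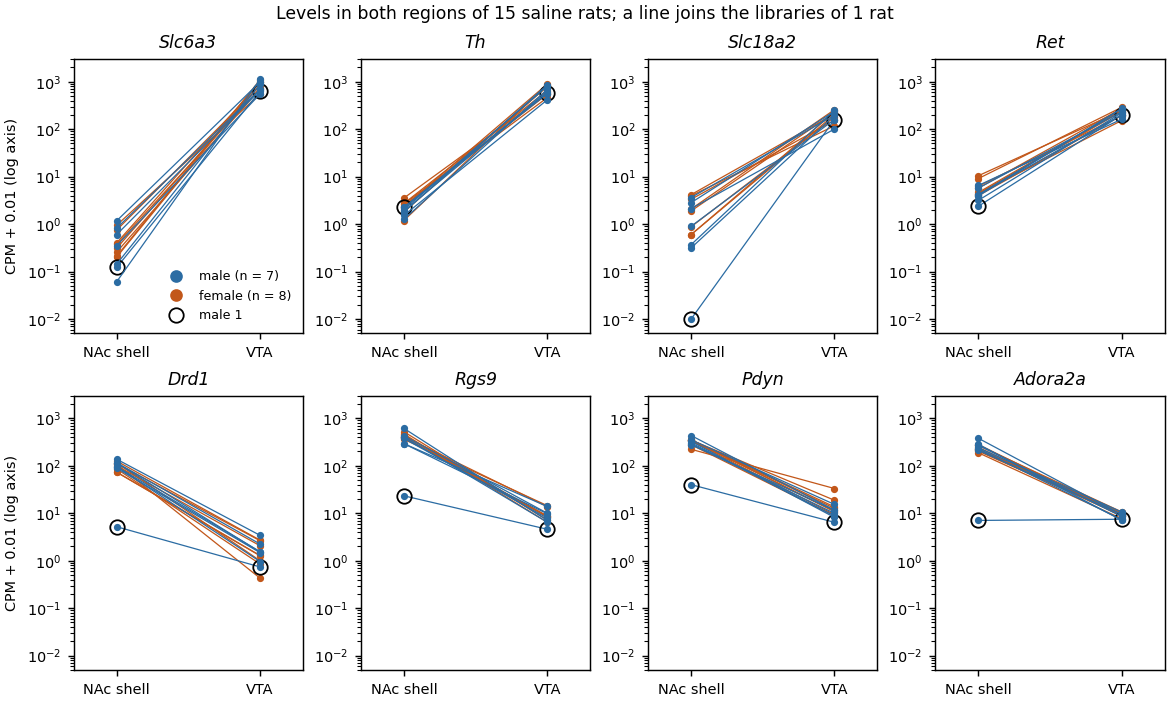
CPM of 8 genes in the NAc shell and VTA libraries of 15 SAL rats on log axes, with 0.01 CPM added so that 0 can be drawn, and a line for each rat (7 males, 8 females). Slc6a3, Th, Slc18a2 and Ret rise from NAc shell to VTA in every rat, and Drd1, Rgs9 and Pdyn fall in every rat. Adora2a falls in 14 rats, and in the circled male 1 its NAc shell value of 7.05 CPM lies at the VTA level.

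Transcription factors of midbrain development and receptors for growth factors made up the next group. Of 10 members tested among dopamine neuron transcription factors and growth factor receptors, 10 were called higher in VTA and 8 beyond 2-fold, with a median log2 difference of 3.67 and no overlap of the ranges in 8. Foxa2 (chromosome 3), which specifies the midbrain floor, had 7.21 to 14.5 CPM in VTA and 0 counts in all 15 NAc shell libraries, against 3028 counts summed over the VTA libraries. Set against a floor of 3 counts over the 15 NAc shell libraries, Foxa2 was at least 965-fold higher in VTA. En2 (6.23 to 21.0 CPM), Pitx3 (7.14 to 15.7 CPM) and Lmx1a (6.81 to 24.1 CPM), factors that dopamine neurons need for their identity or survival, reached at most 0.202, 0.338 and 0.853 CPM in NAc shell. Their log2 differences were 8.58 (SE 0.277), 6.62 (SE 0.281) and 5.23 (SE 0.322). Ret (chromosome 4), the signalling receptor for GDNF, ranged from 152 to 288 CPM (median 233) in VTA and from 2.37 to 10.4 CPM (median 4.41) in NAc shell (5.47, SE 0.144). All 4 had ranges that did not overlap.

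Not every factor of the dopamine neuron separated the regions so far. Nr4a2, an orphan receptor that activates dopamine genes, ranged from 17.0 to 46.6 CPM in VTA and from 4.16 to 20.3 CPM in NAc shell, with a log2 difference of 1.35 (SE 0.142, adjusted p for the test beyond 2-fold = 0.0279). The ranges of Nr4a2 overlapped, and VTA was higher in 15 of 15 rats. Otx2, a factor of the ventral VTA, had 2.75 to 7.51 CPM in VTA and 0 to 2.29 CPM in NAc shell (2.10, SE 0.245). Sncg differed by 2.07 (SE 0.104), and the neurotrophic receptor genes Gfra2 and Ntrk2 by 0.73 (SE 0.100) and 0.49 (SE 0.0427). Without male 1 the ranges of Gfra2 were apart as well. Without all 5 rats named above, Nr4a2 was no longer called beyond 2-fold (1.39, SE 0.177, adjusted p for the test beyond 2-fold = 0.0545).

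Most of the factors tested on a wider list for midbrain and hindbrain regions were higher in VTA as well. Its members Foxa2, En2, Lmx1a and Otx2 were also counted among the dopamine neuron factors above. Of 17 members tested, 16 were called higher and 1 lower, 13 and 1 of them beyond 2-fold, with a median log2 difference of 3.83 and 14 ranges that did not overlap. Gata3 (4.80 to 14.6 CPM), Sox14 (2.51 to 6.71 CPM) and Tal1 (19.7 to 38.7 CPM), which mark GABA neurons of the midbrain, were at most 0.345, 0.134 and 8.45 CPM in NAc shell. Their log2 differences were 6.47 (SE 0.373), 6.31 (SE 0.321) and 2.03 (SE 0.0801). Irx1 (3.83), Irx2 (7.23), Ebf2 (4.80) and Ebf3 (5.39), patterning and neuronal differentiation factors, were likewise higher with no overlap. Tcf7l2, a Wnt effector known from the thalamus, ranged more widely in VTA, from 20.7 to 145 CPM, against 11.9 to 20.8 CPM in NAc shell (1.33, SE 0.191), and was not called beyond 2-fold. Its ranges were apart without male 1. The exception was Tfap2b, at 0.301 to 13.4 CPM in VTA and 2.84 to 8.10 CPM in NAc shell (-1.82, SE 0.338), which was higher in VTA in 1 rat and was no longer called beyond 2-fold without male 1.

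Most of the dopamine receptor genes tested and of the signalling genes that act after them were lower in VTA, and the NAc shell library of male 1 moved several of these values. Of 3 dopamine receptor genes tested, 2 were called lower in VTA, and 3 without male 1. Drd1 (ENSRNOG00000023688, chromosome 17), the receptor of direct pathway neurons, had 0.420 to 3.42 CPM (median 1.47) in VTA and 5.19 to 138 CPM (median 99.8) in NAc shell, where male 1 held the lowest value and the next was 73.1 CPM. The ranges did not overlap and the log2 difference was -5.91 (SE 0.208), or -5.99 (SE 0.148) without male 1. Drd2 (chromosome 8), made by indirect pathway neurons and by dopamine neurons themselves, ranged from 66.3 to 134 CPM in VTA and from 9.59 to 210 CPM in NAc shell, and these ranges overlapped. Its log2 difference of -0.33 (SE 0.191, adjusted p = 0.126) was not called with all rats, while 14 of 15 rats were lower in VTA and without male 1 the difference was -0.48 (SE 0.0745, adjusted p = 1.75e-05). Drd3 was at most 0.420 CPM in VTA and 1.91 CPM in NAc shell, with a log2 difference of -2.82 (SE 0.360), or -2.92 (SE 0.313) with no overlap without male 1, whose NAc shell library was at 0 CPM.

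Striatal signalling genes carry the dopamine and adenosine signals to cAMP and protein phosphatases. Of 20 tested, 17 were called lower in VTA and 13 beyond 2-fold, none higher (0), with a median log2 difference of -1.61 and 7 ranges that did not overlap. Without male 1 the ranges of 15 did not overlap, against 11.5% of all genes with VTA below. Rgs9 (chromosome 10), which shortens G protein signals of dopamine and opioid receptors, had 4.59 to 14.5 CPM (median 8.50) in VTA and 23.3 to 613 CPM (median 397) in NAc shell (-5.32, SE 0.249). Its ranges were apart, and male 1 gave the value of 23.3 CPM, where the next lowest was 292.5 CPM. Ppp1r1b (chromosome 10), the phosphatase inhibitor DARPP-32, ranged from 99.1 to 172 CPM in VTA and from 165 to 1718 CPM in NAc shell (-3.08, SE 0.198), with an overlap that came from male 1 alone. Without male 1 its NAc shell range began at 928 CPM and the difference was -3.22 (SE 0.0932). Gng7 (-3.64), Arpp21 (-3.56), Pde10a (-2.89), Rasd2 (-2.62), Ptpn5 (-2.29) and Adcy5 (-1.60) were also lower beyond 2-fold, as was Rgs14 (-4.08, SE 0.217). Gnal, the G protein that couples these receptors to Adcy5, differed by -0.89 (SE 0.162), or -1.02 (SE 0.0546) without male 1. The ranges of Adcy5, Pde10a and Gnal overlapped through male 1 alone.

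Most markers tested of both striatal output pathways were lower in VTA. Pdyn (chromosome 3), the precursor of dynorphin in direct pathway neurons, had 6.44 to 33.2 CPM (median 11.1) in VTA and 40.0 to 434 CPM (median 337) in NAc shell (-4.61, SE 0.210). Its ranges did not overlap, and the value of 40.0 CPM was that of male 1. Tac1, which encodes substance P, ranged from 10.1 to 39.9 CPM in VTA and from 18.3 to 316 CPM in NAc shell (-3.43, SE 0.226). Without male 1 the NAc shell range of Tac1 began at 199 CPM, with no overlap and a difference of -3.56 (SE 0.161). Chrm4, a muscarinic receptor, ranged from 2.96 to 17.6 CPM and from 73.1 to 176 CPM (-4.01, SE 0.190). Adora2a (chromosome 20), the adenosine receptor of indirect pathway neurons, lay at 7.13 to 10.7 CPM in VTA and 7.05 to 381 CPM in NAc shell (-4.55, SE 0.292). Its overlap came from male 1 alone: without this rat the NAc shell range began at 188 CPM and the SE fell to 0.0838, with a difference of -4.74. Gucy1a1, a subunit of the nitric oxide receptor, differed by -2.28 (SE 0.0953). Of 10 genes on the direct pathway list, 6 were called lower and 4 higher, among them Dlk1, a Notch ligand homologue known from midbrain dopamine neurons, at 57.8 to 118 CPM in VTA and 0.620 to 9.85 CPM in NAc shell (4.40, SE 0.227). Of 4 on the indirect pathway list, 3 were called lower, or 4 without male 1.

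Forebrain transcription factors were the counterpart of the midbrain factors. Of 14 tested, 10 were called lower in VTA, 8 of them beyond 2-fold, and 4 higher, 1 beyond 2-fold, with a median log2 difference of -1.76. The ranges of 4 did not overlap with VTA below, or of 9 without male 1. Bcl11b (3.86 to 20.3 CPM in VTA, 48.9 to 170 CPM in NAc shell), which striatal projection neurons need to mature, differed by -4.14 (SE 0.164). Dlx1 (0.172 to 6.00 CPM, 22.7 to 44.5 CPM), a factor of forebrain GABA neurons, differed by -4.43 (SE 0.366), or -5.14 (SE 0.254) without the 5 rats that stood apart. Both genes were lower in VTA with no overlap. Isl1, a factor of direct pathway and cholinergic neurons, ranged from 0.0457 to 2.00 CPM in VTA and from 0 to 33.8 CPM in NAc shell (-5.01, SE 0.426), and the value of 0 was that of male 1, where the next lowest was 14.1 CPM. Without male 1 the difference of Isl1 was -5.04 (SE 0.378). Foxp1 (-1.91), Foxp2 (-1.61), Rarb (-2.66), Mef2c (-3.12) and Lhx2 (-3.48, SE 0.444, or -4.09, SE 0.308, without those 5 rats) were lower too. The ranges of Isl1, Foxp2 and Rarb were apart without male 1, and Rarb then differed by -2.80 (SE 0.0940). Male 1 held the highest NAc shell value of Mef2c and Lhx2, which differed by -2.999 and -3.26 without it. Nr2f2 was higher, at 13.1 to 25.1 CPM in VTA and 3.85 to 11.3 CPM in NAc shell (1.52, SE 0.107).

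**Figure D3:**
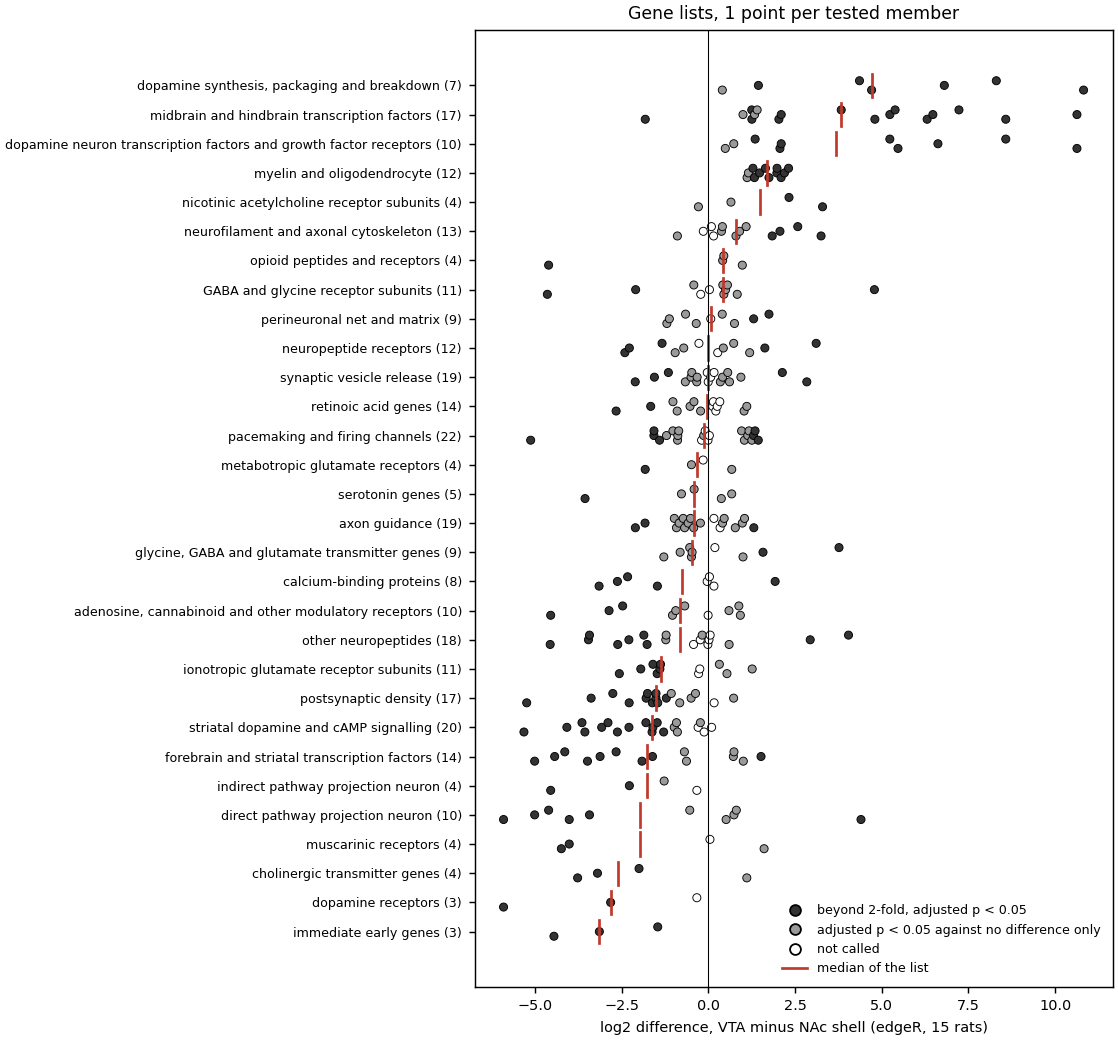
Log2 difference, VTA minus NAc shell (edgeR, 15 rats), of every tested member of the gene lists, with 1 point per gene and a red line at the median of each list. Lists of dopamine genes and of midbrain factors have medians of 4.71 and 3.83, and those of striatal signalling and forebrain factors -1.61 and -1.76. Black points were called beyond 2-fold, grey points were called against no difference only and white points were not called.

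Genes for fast transmitters differed in both directions. Of 9 genes for glycine, GABA and glutamate as transmitters, 3 were called higher in VTA and 5 lower, beside 36.3% and 37.1% of all genes, with a median log2 difference of -0.47. Slc17a6 (chromosome 1), the vesicular glutamate transporter of subcortical neurons, had 59.9 to 168 CPM (median 114) in VTA and 3.55 to 14.6 CPM (median 8.76) in NAc shell (3.77, SE 0.121), without overlap. Gad1, which makes GABA, ranged from 178 to 393 CPM in VTA and from 210 to 763 CPM in NAc shell (-0.81, SE 0.0734), and the vesicular transporter Slc32a1 from 85.6 to 160 CPM and from 52.9 to 272 CPM (-0.54, SE 0.106). Both ranges overlapped. The lowest NAc shell value of each was that of male 1, and without it the Gad1 ranges were apart. Abat, which breaks down GABA, was higher in VTA in 15 of 15 rats, at 121 to 196 CPM against 31.6 to 170 CPM (1.00, SE 0.133), and its ranges overlapped. The glycine transporter Slc6a9 was higher in VTA, at 309 to 514 CPM against 90.5 to 177 CPM (1.58, SE 0.0798), and so was the glycine receptor subunit Glra1, at 1.20 to 4.80 CPM against at most 0.483 CPM (4.79, SE 0.413).

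Cholinergic genes, which in striatum come from interneurons, were mostly lower in VTA and varied widely among rats. Chat, the enzyme that makes acetylcholine, ranged from 0.156 to 4.92 CPM in VTA and from 0.507 to 22.1 CPM in NAc shell (-3.20, SE 0.485), and its vesicular transporter Slc18a3 from 0.358 to 6.27 CPM and from 1.02 to 42.7 CPM (-3.77, SE 0.445). For both, and for the choline transporter Slc5a7 (-1.998, SE 0.344), the lowest NAc shell value was that of male 1 and the ranges overlapped. Without male 1 the 3 differences were -3.42, -4.00 and -2.15, and the ranges of Slc18a3 were apart. Of 4 cholinergic transmitter genes, 3 were called lower and 1 higher, 3 and 0 of them beyond 2-fold.

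Receptors for acetylcholine were divided. Of the nicotinic subunits, 4 of the 16 on the list had a symbol and passed the filter on low counts, and 3 were called higher in VTA, 2 of them beyond 2-fold, and 1 lower. Chrna3 (chromosome 8) ranged from 4.70 to 12.4 CPM (median 8.22) in VTA and from 0.296 to 2.42 CPM (median 0.708) in NAc shell, with a log2 difference of 3.29 (SE 0.231). Its neighbour Chrnb4 (chromosome 8), which joins it in 1 receptor, ranged from 1.38 to 4.03 CPM and from 0.124 to 1.07 CPM (2.33, SE 0.266). The ranges of both were apart and VTA was higher in 15 of 15 rats. Chrnb2, the partner subunit of the most common brain receptor, overlapped at 17.2 to 28.7 CPM and 8.29 to 29.8 CPM (0.65, SE 0.0994). Chrna1, the subunit of the muscle receptor, was the lower one, at 2.43 to 4.98 CPM and 3.04 to 5.84 CPM (-0.29, SE 0.110, adjusted p = 0.0265), and was not called without male 1 (-0.26, adjusted p = 0.0508). Among muscarinic receptors, Chrm1 (-4.24, SE 0.367) and Chrm4 (-4.01, SE 0.190) were lower in VTA, and Chrm2 was higher by 1.61 (SE 0.350), with VTA above in 13 of 15 rats. Without the 5 rats that stood apart, Chrm1 differed by -5.15 (SE 0.180).

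Neuropeptide genes differed in both directions. Of 18 tested beside the opioid genes, 10 were called lower in VTA and 3 higher, 7 and 2 of them beyond 2-fold, with a median log2 difference of -0.82. Sst, the somatostatin of striatal interneurons, ranged from 17.8 to 50.7 CPM in VTA and from 159 to 245 CPM in NAc shell (-2.61, SE 0.142), and the ranges were apart. Tac3, which encodes neurokinin B, ranged from 0.640 to 14.1 CPM and from 17.3 to 52.0 CPM (-3.46, SE 0.351), also without overlap. Nts, neurotensin, had 5.58 to 15.1 CPM in VTA and 0.338 to 73.4 CPM in NAc shell (-1.77, SE 0.276), and without male 1, which held the value of 0.338 CPM, its NAc shell range began at 22.4 CPM. Its receptor gene Ntsr1, known from dopamine neurons, went the other way, at 52.2 to 95.7 CPM in VTA and 5.75 to 14.9 CPM in NAc shell (3.11, SE 0.102). Adcyap1, the peptide PACAP, was higher in VTA, at 20.1 to 87.0 CPM against 0.718 to 29.9 CPM (2.94, SE 0.308). The value of 29.9 CPM was that of male 1, and without it the NAc shell range of Adcyap1 ended at 9.62 CPM, below every VTA library (3.13, SE 0.262). Higher in VTA too was Rln3, relaxin 3, at 1.43 to 4.86 CPM against at most 0.872 CPM (4.04, SE 0.349). Cartpt ranged from 1.76 to 161 CPM in VTA and from 0.959 to 148 CPM in NAc shell, with the value of 0.959 CPM from male 1 (-1.86, SE 0.352). Without male 1 the NAc shell range of Cartpt began at 84.2 CPM and still overlapped that of VTA (-1.92, SE 0.341). Cck, made by many VTA dopamine neurons, was not called, with a log2 difference of -0.43 (SE 0.380, adjusted p = 0.321), VTA higher in 5 of 15 rats, and 908 CPM in the NAc shell of male 1 as the highest value of all.

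Receptors for modulatory transmitters and peptides differed in both directions. Of 10 adenosine, cannabinoid and other modulatory receptors tested, 6 were called lower in VTA and 3 higher, and of 12 neuropeptide receptors 5 were called in each direction. Hrh3, the histamine autoreceptor, ranged from 21.9 to 58.0 CPM in VTA and from 140 to 239 CPM in NAc shell (-2.47, SE 0.143), and Htr6, a serotonin receptor coupled to cAMP, from 0.481 to 1.74 CPM and from 4.79 to 16.7 CPM (-3.56, SE 0.149). Mchr1 (-2.28, SE 0.101), Mc4r (-2.41, SE 0.159) and Adra2c (-2.86, SE 0.157), receptors for melanin-concentrating hormone, melanocortin and noradrenaline, had no overlap either. Cnr1, the cannabinoid receptor, differed by -1.03 (SE 0.0960) with overlapping ranges. Adora1, the adenosine receptor found in most brain regions, was higher in VTA, at 106 to 192 CPM against 68.5 to 92.0 CPM (0.92, SE 0.0615).

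Glutamate and GABA receptor subunits were unequal between the regions. Of 11 ionotropic glutamate subunits, 6 were called lower in VTA, all 6 beyond 2-fold, and 3 higher, with a median log2 difference of -1.38. Gria2, the AMPA subunit that limits calcium entry, ranged from 45.6 to 234 CPM in VTA and from 196 to 510 CPM in NAc shell (-1.95, SE 0.161), and Gria1 from 18.9 to 47.9 CPM and from 62.3 to 132 CPM (-1.48, SE 0.0837). The ranges of Gria1 were apart and those of Gria2 overlapped. Grin2b, an NMDA subunit of forebrain synapses, differed by -2.57 (SE 0.227). Gabrd, the extrasynaptic subunit of the GABA receptor, had 0.732 to 24.8 CPM (median 2.26) in VTA and 59.0 to 101 CPM (median 80.8) in NAc shell (-4.64, SE 0.356), or -5.30 (SE 0.350) without the 5 rats that stood apart. Gabra4, its usual partner in striatum, differed by -2.10 (SE 0.144).

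**Figure D4:**
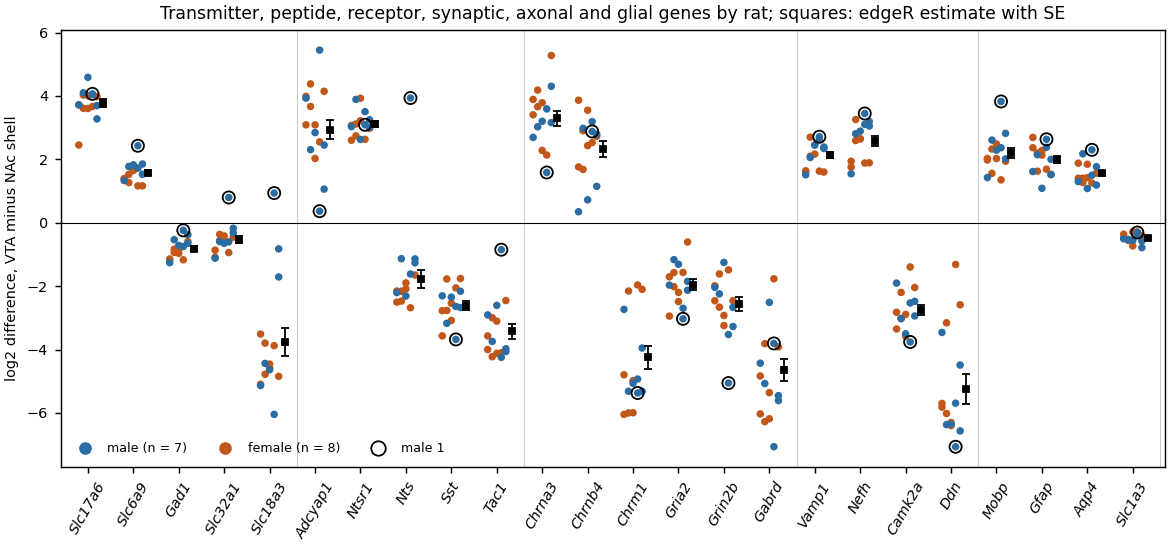
Log2 difference, VTA minus NAc shell, in each of 15 rats (points, 0.5 counts added) for transmitter, peptide, receptor, synaptic, axonal and glial genes, with the edgeR estimate and its SE as black squares. Slc17a6, Ntsr1, Vamp1 and Mobp lie above 0 in all rats, Sst, Gria2, Camk2a and Ddn lie below 0 in all rats, and Nts lies below 0 in all but the circled male 1.

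The postsynaptic density, the protein scaffold under glutamate synapses on spines, had lower levels of most of its genes in VTA. Of 17 members tested, 15 were called lower in VTA, 11 beyond 2-fold, and 1 higher, with a median log2 difference of -1.51, and the ranges of 12 did not overlap with VTA below. Camk2a (chromosome 18), the kinase of synaptic plasticity, ranged from 9.82 to 40.7 CPM (median 14.4) in VTA and from 64.5 to 347 CPM (median 117) in NAc shell (-2.75, SE 0.165). Baiap2 (-3.38, SE 0.137), Camk2b (-1.51, SE 0.0748), Shank3 (-1.51, SE 0.0772) and the main scaffold gene Dlg4 (-1.21, SE 0.0559) were lower without overlap. Ddn had a median of 17.4 CPM in VTA and 1179 CPM in NAc shell (-5.24, SE 0.475), and its highest VTA value, 399 CPM in female 12, stayed under the lowest NAc shell value of 879 CPM. Without the 5 rats named above, picked in part by Ddn itself, the difference of Ddn was -5.97 (SE 0.195). Itpka (-4.81, SE 0.447, or -5.74, SE 0.209, without these rats), an inositol phosphate kinase of spines, and Icam5 (-4.37, SE 0.436, or -5.20, SE 0.227), an adhesion molecule of forebrain dendrites, were named for being among the 15 greatest differences below 0, so their direction was set by that choice.

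Most genes of the axonal cytoskeleton were higher in VTA, while genes of vesicle release differed in both directions. Of 13 members tested of the neurofilament and axonal cytoskeleton list, 9 were called higher and 1 lower, or 11 and 1 without male 1, with a median log2 difference of 0.80. Nefh, the heavy neurofilament, ranged from 352 to 1052 CPM in VTA and from 65.1 to 172 CPM in NAc shell (2.58, SE 0.152), Nefm differed by 1.84 (SE 0.144) and Nefl by 1.09 (SE 0.0956). Prph, a filament of neurons with long axons, had 29.9 to 67.2 CPM in VTA and 2.79 to 7.81 CPM in NAc shell (3.25, SE 0.144). None of these 4 overlapped. Among release genes, Vamp1 and Syt2, the vesicle proteins of fast brainstem synapses, were higher by 2.13 (SE 0.107) and 2.84 (SE 0.248) without overlap, and Syt6 (-2.11, SE 0.189) and Rims2 (-1.56, SE 0.0773) were lower. The ranges of Syt6 were apart without male 1 (-2.25, SE 0.0912). Of 19 release genes tested, 7 were called higher and 8 lower, near the shares of all genes, and the median log2 difference was -0.0037.

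Channel genes differed in both directions, and the calcium-binding proteins called were mostly lower in VTA. Of 22 channel genes tested, 8 were called higher in VTA and 10 lower, near the shares of all genes (36.3% and 37.1%). Hcn2, a pacemaker channel, was at 184 to 401 CPM in VTA and 86.3 to 122 CPM in NAc shell (1.44, SE 0.0909), and Kcna2, a potassium channel of axons, was higher by 1.35 (SE 0.0629). Both pairs of ranges were apart. Kcnj4, an inward rectifier of striatal neurons, had 0.305 to 13.7 CPM in VTA and 88.7 to 132 CPM in NAc shell (-5.12, SE 0.322). Without the 5 rats that stood apart its VTA range ended at 4.09 CPM and it differed by -5.91 (SE 0.222). Cacna1d, the calcium channel known for pacemaking in dopamine neurons, was lower in VTA too (-1.41, SE 0.0942). Of 8 calcium-binding proteins tested, 4 were called lower in VTA, all 4 beyond 2-fold, and 1 higher, with a median log2 difference of -0.75. Pvalb was higher by 1.93 (SE 0.176), with the ranges apart without male 1, whereas Hpca (-3.15, SE 0.164) and Necab2 (-2.33, SE 0.0708) were lower with no overlap.

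Myelin genes were higher in VTA, and astrocyte markers differed in both directions. Of 16 myelin genes listed, 12 had a symbol and were tested, and these 12 were called higher in VTA, 10 of them beyond 2-fold, with no overlap of the ranges and with a median log2 difference of 1.70. Mbp (chromosome 18), the myelin basic protein, ranged from 15410 to 29940 CPM (median 25180) in VTA and from 3109 to 8058 CPM (median 6827) in NAc shell (1.98, SE 0.122). Mobp, another protein of the myelin sheath, was higher too (2.19, SE 0.148), and the lineage factor Sox10, at 129 to 199 CPM against 50.2 to 98.2 CPM, by 1.12 (SE 0.0748). Male 1 held the lowest NAc shell value of these 3 genes, and without it the median of the list was 1.63. Of 6 astrocyte markers, 4 were called higher and 2 lower. Gfap, a filament of reactive and fibrous astrocytes, ranged from 1374 to 3814 CPM in VTA and from 423 to 826 CPM in NAc shell (1.99, SE 0.113), and the water channel Aqp4 was higher by 1.56 (SE 0.0880). The glutamate transporter Slc1a3 was lower (-0.49, SE 0.0411), again with no overlap, so that astrocyte markers did not move as 1 group. Of 5 endothelial, 6 microglial and 5 oligodendrocyte precursor markers, 5, 5 and 5 were called higher and none beyond 2-fold (0), with medians of 0.41, 0.30 and 0.84.

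Markers of tissue next to the regions were called in both directions. Of 8 meningeal fibroblast markers, 7 were called higher in VTA and none beyond 2-fold (0), and all ranges overlapped. Their summed level ranged from 891 to 9670 CPM in VTA and from 1640 to 4770 CPM in NAc shell. Ptgds made up most of this sum, at 742 to 8480 CPM in VTA and 1410 to 4111 CPM in NAc shell (1.00, SE 0.257), and it is also made by oligodendrocytes. Of 7 choroid plexus markers, 3 were called higher and 2 lower. The defining marker Ttr was at 872 CPM in the VTA of female 16 and at 365 CPM in the NAc shell of male 5, and at most 5.50 CPM in the other 28 libraries. Of 5 ependymal markers, 4 were called lower in VTA, with summed levels of 11.0 to 23.7 CPM against 15.3 to 62.8 CPM. Of 6 septal and pallidal markers, 5 were called lower and 1 higher. They include Sst, named above as a gene of striatal interneurons, at a mean of 208 CPM in NAc shell, where the list sum had a median of 285 CPM. This count therefore does not stand for neighbouring tissue alone. Of 6 hypothalamic markers 3 were called higher and 1 lower, with summed levels of 8.08 to 14.4 CPM in VTA and 6.17 to 10.6 CPM in NAc shell. The part of neighbouring tissue in the differences above was not tested.

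Smaller groups completed the lists. All 3 immediate early genes tested were lower in VTA beyond 2-fold: Egr3 at 0.249 to 8.07 CPM against 16.6 to 40.4 CPM (-4.45, SE 0.315, or -5.21, SE 0.203, without the 5 rats that stood apart), Npas4 (-3.14, SE 0.194) and Homer1 (-1.46, SE 0.126). These genes respond to neuronal activity. Of 14 retinoic acid genes, 7 were called lower and 2 higher, among them Stra6, the retinol transporter (-1.66, SE 0.142). Of 19 axon guidance genes, 11 were called lower and 6 higher, with Efnb2 lower (-2.10, SE 0.124) and the netrin receptor Unc5b higher by 1.31 (SE 0.0809). Of 9 perineuronal net and matrix genes, 4 were called in each direction. The counts of these last 3 lists stand beside 36.3% higher and 37.1% lower among all genes, and nothing particular to the lists is read from them.

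Among the 15 greatest differences in each direction by the naming rule, a few belonged to no list. Dao, the D-amino acid oxidase, which lowers D-serine, had 7.06 to 22.3 CPM in VTA and at most 0.494 CPM in NAc shell (5.83, SE 0.244). The uncharacterized LOC102553190 had 13.6 to 33.1 CPM in VTA and at most 1.08 CPM in NAc shell (6.03, SE 0.193). In the other direction, AABR07059679.2, also uncharacterized, had 0.0429 to 3.21 CPM in VTA and 15.1 to 72.0 CPM in NAc shell (-6.05, SE 0.363). Without the 5 rats that stood apart its VTA range ended at 1.01 CPM and the difference was -7.23 (SE 0.232). Krt71, a keratin, ranged from 2.35 to 7.04 CPM and from 25.8 to 144 CPM (-4.70, SE 0.209), and Shisa8, an auxiliary protein of AMPA receptors, from 0.298 to 1.32 CPM and from 3.16 to 15.3 CPM (-4.24, SE 0.178). None of these 5 overlapped between the regions.

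Without all 5 rats named above, 16175 genes were tested, 34.2% called higher in VTA and 35.5% lower. Called were 7 genes of dopamine synthesis, packaging and breakdown, higher in VTA, and 10 dopamine neuron factors and receptors, also higher. Of the midbrain and hindbrain factors 16 were called higher and 1 lower, of the striatal signalling genes 17 lower, and of the forebrain factors 10 lower and 4 higher. Of the postsynaptic density 15 were called lower and 1 higher, and of the myelin genes 12 higher, the same counts as with 15 rats. The ranges of 16 striatal signalling genes and of 10 forebrain factors then did not overlap with VTA below. Of the neurofilament and axonal cytoskeleton genes, 10 were called higher and 2 lower. Of tissue next to the regions, 4 meningeal fibroblast markers were called higher in place of 7, and 2 ependymal markers lower in place of 4. Among genes named above, Cnr1 was then called beyond 2-fold (-1.20, SE 0.0569), as was Sox10 (1.17, SE 0.0496), and the ranges of Gria2, Cnr1, Lhx2, Npas4, Nrgn and Nr4a2 no longer overlapped. Nrgn and Lhx2 were among the genes by which these rats were picked, so the change in their ranges was set by that choice.

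The question whether the region difference was the same in both sexes was asked with a region by sex term. No gene was called by edgeR (0 of 16349), and 1188 genes had an unadjusted p under 0.05 (7.27%). DESeq2 called 6 genes, in all of which the log2 difference was higher in males. Of these, Apold1, an endothelial immediate early gene, had a mean log2 difference of 0.13 in males and -0.65 in females, a term of 0.79 (SE 0.129, adjusted p = 0.0993 from edgeR and 2.94e-04 from DESeq2). Cdc14b (0.66, SE 0.136), Slc25a25 (0.47, SE 0.100) and Map7 (0.44, SE 0.0975) had adjusted p of 0.596 from edgeR and of 0.0345, 0.0336 and 0.0345 from DESeq2, and the other 2 had no symbol. AABR07015812.1 was the fifth of the genes with a symbol by p, with a term of 0.91 (SE 0.202, adjusted p = 0.596). The library names put males and females in different boxes, and the SAL males and SAL females shared no prep batch. Sex, box and prep batch therefore cannot be told apart. In 3 of the 15 rats, all of them female, the VTA and NAc shell libraries came from different prep batches.

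The same comparison was made in 16 NIC rats, which share no library with the SAL rats. Of 16421 genes tested, 11745 were called (71.5%), 36.8% higher in VTA and 34.8% lower, and 1357 beyond 2-fold (8.26%), 699 higher in VTA (4.26%) and 658 lower (4.01%). Among 1598 genes called beyond 2-fold in SAL rats and tested in NIC rats, 1232 were called beyond 2-fold in both, which is 77.1% of the SAL list and 92.2% of the 1336 genes of the NIC list. The direction was the same for 1597 of the 1598, and the median absolute difference between the log2 differences was 0.20. Slc6a3 differed by 11.01 in NIC rats and by 10.82 in SAL rats, Th by 7.98 and 8.30, Drd1 by -5.70 and -5.91, Chrna3 by 2.82 and 3.29, and Mbp by 1.67 and 1.98.

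A region by treatment term over all 31 rats called no gene in edgeR (0 of 16711), with 698 genes at an unadjusted p under 0.05 (4.18%). DESeq2 called 4: Qrich1 (0.19, SE 0.0435, adjusted p = 0.0444), LOC108348079, ENSRNOG00000043107 and ENSRNOG00000059412. Of these, the last 3 had terms of -8.20, 9.96 and 15.4 in DESeq2 and adjusted p of 1 in edgeR, where the fitted terms were -3.79, 3.96 and 7.48. The other genes with a symbol and the smallest p in edgeR were Myh7 (0.71, SE 0.183), LOC103691556 (-0.43, SE 0.110), Ebf2 (-1.22, SE 0.324) and AC117889.1 (0.59, SE 0.157), none of them called, with an adjusted p of 0.9996 for each.

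**Figure D5:**
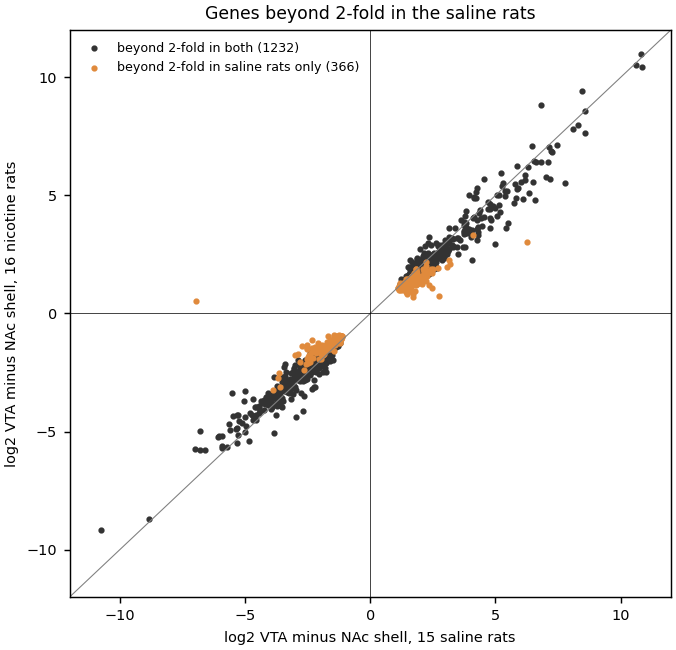
Log2 difference, VTA minus NAc shell, in 16 NIC rats against that in 15 SAL rats, for the 1598 genes called beyond 2-fold in SAL rats and tested in both, with a line of equality. The 1232 genes also called beyond 2-fold in NIC rats are black and the rest orange, and 1 gene lies on the other side of 0.

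The NAc core, which borders the shell, showed how far 2 neighbouring regions differ by the same test. NAc shell against NAc core in 16 SAL rats gave 3869 called genes of 16150 (24%) and 27 beyond 2-fold (0.167%), 0.0619% higher in NAc shell and 0.105% lower, with a median absolute log2 difference of 0.11. Without male 1, 4140 genes were called (25.7%) and 36 beyond 2-fold (0.223%), 0.0868% higher and 0.136% lower. This comparison shares the NAc shell libraries with the one above, so the values stand side by side only. Drd1 differed by -5.91 between VTA and NAc shell and by 0.15 between NAc shell and NAc core (adjusted p = 0.418), and Rgs9 by -5.32 and -0.05 (adjusted p = 0.869). Without male 1, NAc shell minus NAc core stood at 0.19 (adjusted p = 0.263) for Drd1 and -0.07 (adjusted p = 0.797) for Rgs9. Isl1 was higher in NAc shell than in NAc core by 1.05 (adjusted p = 8.67e-04), Drd3 by 2.45 (adjusted p = 8.17e-05), Nts by 1.05 (adjusted p = 4.67e-04) and Chat by 1.03 (adjusted p = 2.29e-04), and Nr4a2 was lower (-2.15, adjusted p = 2.65e-07). Without male 1 these 5 differences were 1.12, 2.45, 1.16, 1.05 and -2.13, and the 5 genes were again called. The smallest p went to Grb10 (0.58), Il16 (1.01), Nnat (0.98), Hap1 (0.87) and Zic4 (1.42) among genes higher in NAc shell and to Camk4 (-0.999), Cabp1 (-0.97), Kcnv1 (-0.92), Robo2 (-0.68) and Pamr1 (-0.56) among genes lower. In the comparison of VTA minus NAc shell, Il16 stood at -1.27, Nnat at 0.50, Zic4 at -0.95, Camk4 at -1.47 and Kcnv1 at -3.65 on the log2 scale, while Grb10 was not called at 0.04 (adjusted p = 0.640).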

How the data were processed

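RNA sequencing of VTA and NAc shell from 15 SAL rats was analysed. The authors trimmed paired-end reads with fastp 0.20.0, quantified transcripts of Rnor 6 with salmon 0.12.0 and summed them by gene with tximport. The deposited values are estimated counts, as whole numbers and not normalized. How they were made whole is not given in the sources used here. Groups came from the labels, and rats from the numbers in the library names, where a number marks 1 animal. The values alone do not show this pairing: correlations of deviations within rats were -0.0463 to 0.0983 (median 0.0179, 0 over 0.1), against a median of 0.00118 between rats. The members, lists and tests were chosen with earlier results of these data known. Symbols came from the paper's tables and named 7899 of 17637 genes (44.8%), so list members without one were not analysed. By their titles, these tables mostly hold genes differentially expressed in nicotine sensitization or self-administration, or with allelic imbalance. The SAL libraries used here entered some of those comparisons. The members tested cannot be taken as a random part of the lists, and what this does to the counts was not tested. Antisense and overlapping genes could not be told apart.

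Models were fitted in R 4.3.3 by edgeR 4.0.16 (TMM, quasi-likelihood test, glmTreat against 2-fold, rat as a block), with Benjamini-Hochberg adjustment at 0.05. A gene was tested if 3 or more of the 30 libraries had a count over 10 after scaling by DESeq2 size factors, and SE is the log2 difference divided by the root of F. Differences by rat had 0.5 counts added. The scripts were tested on simulated counts. Values of some list members are not reported here. The text names members of the gene and marker lists. It also names the 15 genes of greatest difference in each direction with a symbol, at least 5 CPM in the higher region and 1 direction in all rats, and the 5 genes of smallest p for each term and direction of the other fits. Genes called by DESeq2 alone were named after their values were seen. Alternatives were DESeq2 1.42.0, other size factors and filters, no block, R1 of male 5 or R1 and R2 summed, rats with 1 prep batch, each sex, NIC rats and leaving out each rat. Leaving out male 1 and leaving out 5 rats, also for the lists, were chosen after the data were seen. These rats were picked by levels of striatal projection neuron and cholinergic markers, Nrgn, Ddn and Lhx2. Library totals limit precision for genes under about 1 CPM. Reads, NAc core beyond the last comparison, and self-administration libraries were not analysed here.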

Additional observations from a re-analysis of the deposited data

Results flagged for a closer look

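For 139 genes the log2 differences by rat were examined within the 7 males and within the 8 females, 278 groups in all, for a rat whose gap to the nearest other exceeds Dixon's 95% critical value. Chance gives about 1 in 20 such groups, and 40 were found (14.4%). In 24 of them the rat was male 1, whose NAc shell library stood apart. Among genes of striatal projection neurons its log2 differences were -2.80 for Drd1, 2.80 for Drd2, 1.93 for Drd3, 0.0823 for Adora2a, -2.63 for Pdyn, 2.78 for Isl1 and -1.09 for Gucy1a1. Its differences were -0.34 for Ppp1r1b, -0.70 for Gng7, 0.26 for Pde10a, 0.36 for Adcy5 and 1.66 for Gnal among signalling genes. They were 0.21 for Rarb, 3.93 for Nts, -1.08 for Adra2c, 2.98 for Scn4b, 0.57 for Syt6 and -0.36 for Pvalb. Scn4b, a sodium channel subunit, had overlapping ranges and a log2 difference of -1.21 (SE 0.263, adjusted p for the edgeR test beyond 2-fold = 0.563) with all rats, and without male 1 its ranges were apart and it was called beyond 2-fold (-1.38, SE 0.111, adjusted p = 0.00369). Genes farther below 0 than in the other males were Mef2c at -4.67, Lhx2 at -9.82 and Nrgn at -4.60, and genes farther above were Lmx1a at 8.30, Otx2 at 6.62 and Irx1 at 6.93.

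The other 16 were spread over 8 rats. In male 4, whose VTA library held raised Ddn, Chrm4 stood at -2.64, Nefh at 1.54 and Nefm at 0.84, and in male 8 LOC102553190 at 7.33. Female 12 stood apart for Drd2 at -1.03, Mef2c at -0.80 and Shank3 at -0.65. Female 13 did so for Pdyn at -2.74 and Efnb2 at -1.10, and female 15 for Syt2 at 4.66 and Pvalb at 3.04. In female 11 Gng7 was at -3.94 and Ntsr1 at 3.93, in female 9 Slc17a6 was at 2.45, and in female 16 Syt6 was at -1.30 and Ttr at 10.53. The causes were not tested.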

How the results depend on the processing

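The counts of called genes stayed within 1.5 times of the reported ones under every alternative that was run, with 3 exceptions. With a normalized count of at least 10 required in every library, 1001 of 13427 genes were called beyond 2-fold in place of 1620, since genes near 0 in a region are then not tested. DESeq2's Wald test called 6 genes for the sex term and 4 for the treatment term, where edgeR called 0. Otherwise 9099 (males only) to 12249 (no filter on low counts) genes were called, and 1178 (males only) to 1696 (no filter) beyond 2-fold. Leaving out each rat in turn gave 11688 to 12077 genes called, 1550 to 1725 beyond 2-fold, 3445 to 4140 for NAc shell against NAc core, and 0 to 0 for the sex and the treatment term. Without the rat as a block, which tests the same libraries without their pairing, 12216 genes were called and 1620 beyond 2-fold, 1561 of them shared, and NAc shell against NAc core gave 3416. With R1 of male 5 the mean difference of the library totals was 893299. Of 4388 values of 159 genes under the alternatives, 4367 kept direction and side of the threshold. Cck changed direction, to 0.077 (adjusted p = 0.850) in females only against -0.43 in all rats, and was called without the block at -0.86 (adjusted p = 0.0218). The cause was not tested. In males only, Gnal, Slc32a1, Slc5a7, Nts, Htr2c, Scn4b and Ptgds were no longer called, and Htr2c was not called in NIC rats either. The males include male 1, flagged above for Gnal at 1.66, Nts at 3.93 and Scn4b at 2.98, and not for the other genes just listed. The cause was not tested here either. Drd2 was called in females only, without male 1 and in the 10 rats left after taking out 5. Ttr was called in females only at 3.14, in NIC rats at 2.04 and without male 5 at 2.00, and had a log2 difference of 1.40 (SE 0.946) in all rats. Depth limits the differences of genes with few counts in a region, such as Pitx3 and Gata3 in NAc shell.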
